A study of Homo sapiens with 8 samples.

Results

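The interferon-stimulated antiviral genes examined here are a list of 39 human genes whose transcription rises when a cell is exposed to interferon, and most of their proteins sense, bind or destroy viral RNA or block a step of virus growth. Of the 39, 37 were measured on the arrays, out of 18404 genes tested in all. A gene counted as measured where a probe set carried its symbol and no other symbol, and each of the 37 had 1 such probe set. The probe set of GBP1, an interferon-induced GTPase, carried several symbols, and STAT2, a transcription factor of the interferon response, was not matched to a probe set, so neither is analysed here.

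The arrays were Affymetrix Human Gene 1.0 ST arrays of total RNA from COLO829, a long-established melanoma line with an activating BRAF mutation. The populations were infected with a pGIPZ vector carrying a scrambled hairpin or one that targets MITF, the transcription factor that directs the melanocyte lineage. All of them were kept under puromycin for 2 days and then given either 1 µM PLX4032, a drug that blocks mutant BRAF, or the solvent DMSO for 24 h. The 8 arrays formed 4 groups of 2, named below scrambled DMSO, scrambled PLX4032, MITF-hairpin DMSO and MITF-hairpin PLX4032 cells, with the letters A and B for the arrays of a group. The labels name 1 vector against MITF, so an effect of the loss of MITF and one of that hairpin's sequence cannot be told apart. They do not state that A and B were grown separately, and p-values then measure only the spread between these arrays, which may be technical. Levels are log2 intensities as deposited. Changes are differences of group means on that scale, given ± SE from a limma fit over all 8 arrays (n = 2 per group), and a change was called where the limma adjusted p, by Benjamini-Hochberg over 18404 genes, was under 0.05.

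Interferons are secreted proteins that bind receptors at the cell surface. The receptors of type I and type III interferons activate the kinases JAK1 and TYK2. The signal passes to the transcription factor complex ISGF3, which contains STAT2 and IRF9 and binds the interferon-stimulated response element (ISRE) in promoters. Interferon gamma acts through JAK1 and JAK2 and the gamma-activated site (GAS) in promoters. Cells can also start the programme from within, when sensors of viral or misplaced RNA or DNA activate IRF3 and IRF7, and many products of the programme are themselves sensors or transcription factors that amplify it.

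The check of the hairpin came first. MITF read 10.44 and 10.46 in scrambled DMSO cells, 9.57 and 9.47 in MITF-hairpin DMSO cells, 10.88 and 10.80 in scrambled PLX4032 cells and 10.07 and 10.08 in MITF-hairpin PLX4032 cells, so that it was lower with its hairpin under both treatments (log2 change -0.93 ± 0.0803 in DMSO, limma adjusted p = 8.28e-06, and -0.76 ± 0.0803 under PLX4032). The melanosome gene PMEL, a defining marker of the lineage, read 12.61 and 12.59 in scrambled DMSO cells and 11.90 and 11.70 with the MITF hairpin. Of 7 melanocyte lineage markers measured, MITF itself among them, 4 fell and 1 rose with the hairpin in DMSO. Over all genes 18.8% fell and 14.4% rose. The falls were those of MITF, PMEL, MLANA (-1.83 ± 0.0955) and TYRP1 (-2.55 ± 0.0977). S100B rose (0.56 ± 0.0844), and TYR (0.23 ± 0.0879) and SOX10 (0.13 ± 0.0968) were not called. Of markers of other cells, 2 of 10 for leukocytes (CD14, at 0.85 ± 0.107, and CD68, at 0.28 ± 0.0975), 2 of 7 for fibroblasts (LUM, at 0.39 ± 0.0848, and PDGFRA, at 0.32 ± 0.107) and 0 of 6 for keratinocytes rose, the fibroblast collagen gene COL1A2 fell (-0.41 ± 0.0826), and the pan-leukocyte marker PTPRC changed by -0.17 ± 0.0829, which was not called; the part of such cells in the results below was not tested. With 2 arrays a group, a typical gene had an SE of 0.0939 for a change and of 0.133 for the interaction (medians over all genes).

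In 3 of the 4 groups the interferon-stimulated genes read higher on array A by more than the genes as a whole did. In scrambled PLX4032 cells, 34 of the 37 genes read higher on array A than on array B, by a median of 0.38, while 58.8% of all genes read higher on A, by a median of 0.029. In 13 of the 37 the gap was over 0.5 log2 units, as it was in 0.75% of all genes, and it was widest for IFIT1 (1.42), IFI44L (1.23) and OAS2 (1.09). In scrambled DMSO cells 29 of the 37 were higher on A, by a median of 0.15 (all genes -0.026), and in MITF-hairpin PLX4032 cells 33 were, by a median of 0.18 (all genes -0.008), though in the latter no gap of the 37 passed 0.5. In MITF-hairpin DMSO cells the genes did not stand apart: 24 of the 37 and 61.1% of all genes were higher on A, with medians of 0.03 and 0.033. The response to PLX4032 in scrambled cells is therefore given below with and without each of these arrays.

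**Figure D1:**
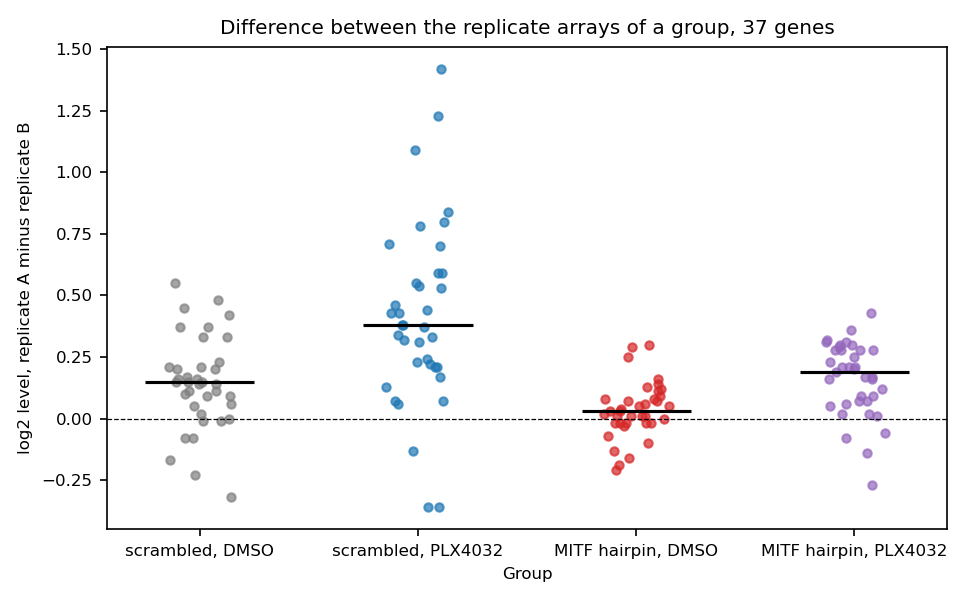
Difference in log2 level between arrays A and B of each group (vertical axis) for the 37 interferon-stimulated genes, 1 point a gene, with the median as a bar; points are spread sideways only to be seen. The scrambled PLX4032 group stands out, with a median of 0.38 and its highest point at 1.42 for IFIT1, while the MITF-hairpin DMSO group centres on 0.03.

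Because these genes share a known promoter element, their promoters are shown before their levels. Promoter windows of 300 bases, 250 before and 50 after a RefSeq transcription start (GRCh38.p14), were found for 31 of the 39 genes, and not for OAS2, OASL, IFIT2, DHX58, MX2, USP18, IRF7 and TRIM22. The ISRE core, searched on both strands as GAAA, any 2 bases and GAAA again, stood in the windows of 22 of the 31 genes (71%), against 4.38% of the 27305 genes with a window. The GAS core, searched as TTCNNNGAA on both strands, stood in those of 9 of the 31 (29%), against 9.38% of all genes. A core can overlap another, and a match is a run of letters and not a measured binding site. The 9 genes with no ISRE core in the window were CMPK2, HERC6, IFI35, IRF1, IRF9, OAS1, SAMD9L, STAT2 and XAF1.

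The first set shows what the shared element looks like in 9 genes of different roles, each as 44 bases upstream of the start, 5′ to 3′ on the gene's own strand, with every ISRE core of the stretch in capitals (on the opposite strand it reads TTTC, 2 bases and TTTC). ISG15, BST2 and IFIH1 hold overlapping cores in tandem, and IFIT1 holds a separate pair.
ISG15 (chr1:1013373-1013416, plus strand): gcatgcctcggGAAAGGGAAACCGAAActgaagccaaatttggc
BST2 (chr19:17405728-17405771, minus strand): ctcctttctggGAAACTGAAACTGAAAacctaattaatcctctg
IFIT1 (chr10:89392503-89392546, plus strand): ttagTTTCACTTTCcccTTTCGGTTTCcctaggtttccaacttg
OAS3 (chr12:112938314-112938357, plus strand): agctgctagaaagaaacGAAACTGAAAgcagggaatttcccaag
IFIH1 (chr2:162318811-162318854, minus strand): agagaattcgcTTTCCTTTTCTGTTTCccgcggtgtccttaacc
PARP14 (chr3:122680793-122680836, plus strand): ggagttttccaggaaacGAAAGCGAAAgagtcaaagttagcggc
RSAD2 (chr2:6877615-6877658, plus strand): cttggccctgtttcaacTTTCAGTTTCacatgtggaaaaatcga
SAMD9 (chr7:93118089-93118132, minus strand): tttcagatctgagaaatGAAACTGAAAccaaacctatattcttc
IFI44L (chr1:78620358-78620401, plus strand): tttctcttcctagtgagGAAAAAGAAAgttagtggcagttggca

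The second set shows the full 250 bases before the start of a pair of neighbours, HERC5 and HERC6, because these adjacent paralogs on chromosome 4 responded differently to PLX4032 in MITF-hairpin cells, as described below. Capitals again mark the ISRE core. The HERC5 stretch holds 3 cores, starting at positions -125, -119 and -74 from the start, and the HERC6 stretch holds 0.
HERC5 (chr4:88456869-88457118, plus strand): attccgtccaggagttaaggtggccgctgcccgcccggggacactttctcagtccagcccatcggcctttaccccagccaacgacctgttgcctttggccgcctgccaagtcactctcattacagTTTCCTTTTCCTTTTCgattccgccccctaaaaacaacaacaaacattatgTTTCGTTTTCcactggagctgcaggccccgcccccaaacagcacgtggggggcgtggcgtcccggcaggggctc
HERC6 (chr4:88378602-88378851, plus strand): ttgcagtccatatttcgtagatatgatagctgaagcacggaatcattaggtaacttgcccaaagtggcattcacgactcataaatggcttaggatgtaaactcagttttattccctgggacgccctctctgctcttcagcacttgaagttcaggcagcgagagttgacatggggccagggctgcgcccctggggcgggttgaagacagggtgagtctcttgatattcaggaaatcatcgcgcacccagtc
The E-box CACGTG, a sequence that the MITF family is known to bind, was searched after the other motifs had been seen. It stood in the windows of 4 of the 31 genes (EIF2AK2, HERC5, IRF9 and ISG20, or 12.9%), near the 8.77% of all genes. Other sequences that this family may bind were not searched.

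In DMSO, 36 of the 37 interferon-stimulated genes rose with the MITF hairpin and 0 fell. Over all genes 14.4% rose and 18.8% fell. The median change of the 37 was 2.06 on the log2 scale, and the median over all genes was 0.02. On the 37 probe sets, both MITF-hairpin DMSO arrays read higher than both scrambled DMSO arrays in every case, an order that held for 35% of all genes. The list supplied 24 of the 100 largest rises of all genes. Like the other gene lists used here, it was chosen with earlier results of these data known. The shares set beside those of all genes are therefore descriptions and not tests of a list. In bulk RNA, more transcript per cell and more cells that express the gene cannot be told apart.

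**Figure D2:**
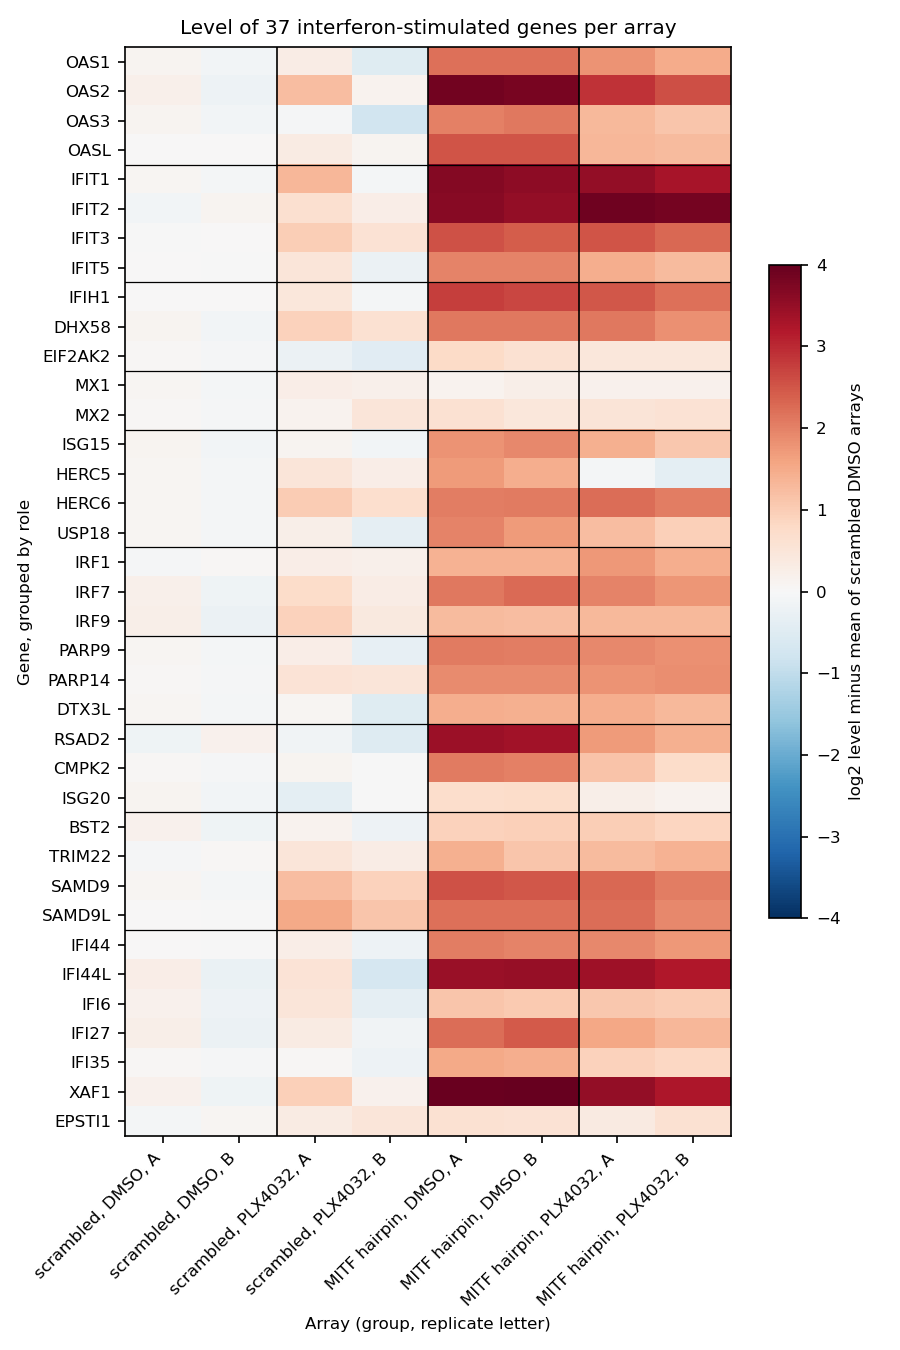
Level of each of the 37 interferon-stimulated genes (rows, in blocks by role) on each of the 8 arrays (columns), as the log2 level minus that gene's mean in scrambled DMSO cells, with red for higher and blue for lower and the strongest colours clipped at the ends of the scale. The MITF-hairpin columns are red for nearly all rows, the MX1 row stays pale throughout, HERC5 turns pale blue in MITF-hairpin PLX4032 cells, and array A of scrambled PLX4032 cells is redder than array B.

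Among the 2′-5′ oligoadenylate synthetases, whose product activates the ribonuclease RNase L, all 4 rose in DMSO, by 2.07 to 3.83. OAS2 read 7.58 and 7.16 in scrambled DMSO cells and 11.24 and 11.16 in MITF-hairpin DMSO cells, a 14.2-fold rise (3.83 ± 0.271, limma adjusted p = 2.05e-06). OASL, a family member without synthetase activity, read 5.46 on both scrambled arrays and 7.99 on both MITF-hairpin arrays (2.53 ± 0.0935). OAS1 rose by 2.21 ± 0.202 and OAS3 by 2.07 ± 0.18. The rise of each of the 4 was far wider than the gap between the arrays of either group.

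The IFIT proteins bind viral RNA with foreign 5′ ends or act with those that do, and all 4 rose, with a median of 3.03. IFIT1 read 7.97 and 7.82 without the MITF hairpin and 11.57 and 11.46 with it (3.62 ± 0.322, 12.3-fold, limma adjusted p = 1.05e-05). IFIT2 read 5.36 and 5.59, then 9.12 and 9.0 (3.59 ± 0.124). IFIT3 rose by 2.48 ± 0.125 and IFIT5 by 1.98 ± 0.173, so the smallest rise of the family was still nearly 4-fold (3.96).

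The RNA sensors of the list rose strongly and the RNA-activated kinase less so. IFIH1, which encodes the long double-stranded RNA sensor MDA5, read 5.99 and 6.0 in scrambled DMSO cells and 8.74 and 8.66 in MITF-hairpin DMSO cells (2.71 ± 0.153, 6.52-fold, limma adjusted p = 4.08e-07). DHX58, which encodes the regulatory sensor LGP2, rose by 2.11 ± 0.126. EIF2AK2, whose product PKR halts translation on double-stranded RNA, read 10.36 and 10.25, then 11.07 and 10.93 (0.69 ± 0.0971, 1.62-fold, limma adjusted p = 0.000278). For each of the 3 genes, both arrays with the MITF hairpin lay above both without it.

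ISG15 is a ubiquitin-like protein that HERC5 attaches to other proteins in human cells and USP18 removes; USP18 also dampens signalling from the type I receptor, and HERC6 is the neighbouring paralog of HERC5. All 4 rose in DMSO. ISG15 read 6.59 and 6.36 in scrambled DMSO cells and 8.27 and 8.40 in MITF-hairpin DMSO cells (1.86 ± 0.13, 3.64-fold). HERC6 rose by 2.07 ± 0.115, USP18 by 1.85 ± 0.176 and HERC5 by 1.58 ± 0.128 (limma adjusted p = 5.32e-06 for HERC5).

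The transcription factors measured were IRF1, IRF7 and IRF9, the DNA-binding part of ISGF3, and all 3 rose. IRF7, the factor that amplifies type I interferon transcription, read 7.30 and 6.93, then 9.22 and 9.38 (2.19 ± 0.154, 4.56-fold, limma adjusted p = 1.95e-06). IRF1, also a target of interferon gamma, rose by 1.39 ± 0.103. IRF9 read 9.39 and 8.94 in scrambled DMSO cells and 10.42 and 10.40 in MITF-hairpin DMSO cells (1.25 ± 0.167).

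PARP9 and its partner DTX3L form an ADP-ribosylation and ubiquitin ligase complex that promotes interferon-driven transcription, and PARP14 is a related ADP-ribosyltransferase. PARP9 rose by 2.06 ± 0.153, PARP14 by 1.90 ± 0.081 and DTX3L by 1.44 ± 0.148. PARP14 read 7.93 and 7.83 without the MITF hairpin and 9.78 and 9.77 with it.

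RSAD2 encodes viperin, which makes a chain-terminating nucleotide from CTP, CMPK2 is its neighbour in the genome and encodes a nucleotide kinase, and ISG20 is a 3′ exonuclease. RSAD2 read 4.95 and 5.27 in scrambled DMSO cells and 8.53 and 8.47 in MITF-hairpin DMSO cells (3.40 ± 0.145, 10.5-fold, limma adjusted p = 6.67e-08). CMPK2 rose by 2.06 ± 0.124 and ISG20 by 0.71 ± 0.119.

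Among restriction factors, the paralogs SAMD9 and SAMD9L, which block poxvirus growth, rose by 2.52 ± 0.124 and 2.20 ± 0.138. TRIM22, an E3 ligase, rose by 1.26 ± 0.111. BST2 encodes tetherin, which holds budding virus at the cell surface. It read 10.23 and 9.90, then 10.99 and 11.01 (0.94 ± 0.128, 1.92-fold).

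The 7 remaining induced genes all rose, from EPSTI1 at 0.60 ± 0.105 to XAF1 at 4.05 ± 0.214. EPSTI1 was dim, with 3.57 and 3.74 in scrambled DMSO cells and 4.26 and 4.23 in MITF-hairpin DMSO cells. XAF1, whose product antagonises the apoptosis inhibitor XIAP, had the largest rise of the list, with 5.76 and 5.43 in scrambled DMSO cells and 9.55 and 9.74 in MITF-hairpin DMSO cells (16.6-fold, limma adjusted p = 2.61e-07). IFI44L read 8.47 and 7.92, then 11.64 and 11.66 (3.45 ± 0.304). Its neighbour IFI44 rose by 2.00 ± 0.13, the mitochondrial protein gene IFI27 by 2.33 ± 0.174, IFI35 by 1.49 ± 0.0961 and IFI6, which encodes another small mitochondrial membrane protein, by 1.09 ± 0.213. The IFI6 call was lost when limma's variance prior was given an intensity trend and robust estimation.

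The exception was MX1, the influenza restriction factor that is widely used as a marker of the type I response. It read 5.10 and 4.95 in scrambled DMSO cells, 5.29 and 5.22 in scrambled PLX4032 cells, 5.18 and 5.25 in MITF-hairpin DMSO cells and 5.21 and 5.19 in MITF-hairpin PLX4032 cells. The change with the MITF hairpin in DMSO was 0.19 ± 0.0845 (95% interval 0.00 to 0.37, limma adjusted p = 0.112). MX1 had no call in any of the 6 contrasts, and 1 call when arrays were left out in turn, for PLX4032 in scrambled cells without array A of scrambled DMSO cells (0.30, adjusted p = 0.0402). MX2, its neighbour on chromosome 21 and a factor against HIV-1, read 4.32 and 4.21, then 4.86 and 4.70 (0.52 ± 0.118, limma adjusted p = 0.00629), a call that was lost without array A of MITF-hairpin DMSO cells (0.44, adjusted p = 0.0603). No detection calls were used, so it is not known how far the MX probe sets lay above background, and an ISRE core stood in the MX1 windows.

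Whether the window held an ISRE core went with little difference in the size of the rise. The median change with the MITF hairpin in DMSO was 1.98 for the 21 measured genes with a core, 2.06 for the 8 with a window and no core, and 2.15 for the 8 with no window. OAS1, IRF9 and XAF1, which had no core in the window, rose by 2.21, 1.25 and 4.05.

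Of 10 pairs of neighbours in the list, 5 differed by more than 1 log2 unit in their change with the MITF hairpin in DMSO. SAMD9 and SAMD9L on chromosome 7 rose by 2.52 and 2.20, and HERC6 and HERC5 by 2.07 and 1.58. In the cluster on chromosome 12, OAS2 rose by 3.83 beside 2.21 for OAS1 and 2.07 for OAS3. On chromosome 10 IFIT1 rose by 3.62 and its neighbour IFIT5 by 1.98, and IFIT2 rose by 3.59 beside 2.48 for IFIT3. IFI44L and IFI44 on chromosome 1 (3.45 and 2.00) and RSAD2 and CMPK2 on chromosome 2 (3.40 and 2.06) also differed by more than 1 unit. These are descriptions of adjacent pairs, and the differences between neighbours were not tested.

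PLX4032 in scrambled cells moved fewer of the genes and by less. Of the 37, 12 rose and 1 fell, against 17.3% rising and 16.8% falling among all genes, with a median of 0.22 beside 0.05 for all genes. The rises were those of SAMD9L, SAMD9, HERC6, IFIT3, DHX58, IRF9, PARP14, IRF7, IFIT2, EPSTI1, TRIM22 and HERC5, and none of them came among the 100 largest of all genes. EIF2AK2 fell, by 0.35 on the log2 scale (limma adjusted p = 0.0162), a call lost without array A of scrambled DMSO or array B of scrambled PLX4032 cells.

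SAMD9L showed the largest rise, from 7.94 and 7.88 to 9.44 and 9.01 (1.31 ± 0.138, 2.48-fold, limma adjusted p = 2.82e-05). SAMD9 went from 8.56 and 8.40 to 9.72 and 9.40 (1.08 ± 0.124), and HERC6 from 7.71 and 7.55 to 8.65 and 8.31 (0.85 ± 0.115). In each of these genes both PLX4032 arrays lay above both DMSO arrays, an order that held for 6885 of all 18404 genes. IFIT3 rose by 0.79 ± 0.125, DHX58 by 0.76 ± 0.126 and PARP14 by 0.52 ± 0.081.

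Those 6 genes, IFIT3, DHX58, HERC6, PARP14, SAMD9 and SAMD9L, were called with each of the 8 arrays left out in turn and under the other alternatives run. Each of the other 7 calls was lost when some 1 of the 4 scrambled arrays was left out. IFIT2, HERC5, IRF7, IRF9 and TRIM22 lost theirs without array A of scrambled PLX4032 cells and also without 1 of the scrambled DMSO arrays, and EPSTI1, like EIF2AK2, lost its call without array A of scrambled DMSO or array B of scrambled PLX4032 cells. Without array B of scrambled DMSO cells 9 of the 37 rose. Without array A of scrambled PLX4032 cells 8 genes rose and 7 fell, and the median was -0.02. Those that were then called lower were OAS1, OAS3 (-0.76, adjusted p = 0.00231), PARP9, DTX3L, RSAD2, IFI44L (-0.68, adjusted p = 0.0327) and EIF2AK2. Without array B of that group 17 rose, with a median of 0.34. OAS2 read 8.59 on array A and 7.50 on array B, the first above and the second within the scrambled DMSO values of 7.58 and 7.16, and its change of 0.68 ± 0.271 was not called (limma adjusted p = 0.0783).

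In MITF-hairpin cells PLX4032 lowered 13 of the 37 genes and raised 0, where 15.1% of all genes fell and 18.6% rose. The median was -0.21 beside 0.04 for all genes. The falls took in 3 of the 4 oligoadenylate synthetase family genes (OASL, OAS2 and OAS3), 3 of the 4 genes of the ISG15 system (HERC5, USP18 and ISG15) and RSAD2, CMPK2 and ISG20, together with IFIT5, IFI27, IFI35 and XAF1. The sensors, the transcription factors, the PARP9 group and the restriction factors had 0 calls.

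RSAD2 fell from 8.53 and 8.47 in MITF-hairpin DMSO cells to 6.81 and 6.53 in MITF-hairpin PLX4032 cells (-1.83 ± 0.145, 3.56-fold, limma adjusted p = 2.49e-06). HERC5 fell from 7.12 and 6.87 to 5.34 and 5.03 (-1.80 ± 0.128, 3.49-fold, limma adjusted p = 1.05e-06). RSAD2 stayed above its level in all scrambled arrays, while HERC5 came down to, or below, the scrambled DMSO values of 5.50 and 5.33. OASL fell from 7.99 on both arrays to 6.79 and 6.72 (-1.23 ± 0.0935), and CMPK2 from 9.32 and 9.25 to 8.38 and 7.95 (-1.12 ± 0.124).

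The HERC pair parted here. HERC6 read 9.68 and 9.71 in MITF-hairpin DMSO cells and 9.85 and 9.69 in MITF-hairpin PLX4032 cells, a change of 0.07 ± 0.115 (95% interval -0.18 to 0.33), where HERC5 fell by 1.80. The promoters printed above differ in their ISRE cores, and no test ties that to the change. Among the measured genes, the median change with PLX4032 in MITF-hairpin cells was -0.21 for the 21 with a core. It was -0.35 for the 8 with a window and no core. CMPK2 and RSAD2, neighbours on chromosome 2, both fell.

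Of the 13 falls, 9 were called with every array left out in turn and under the other alternatives: OAS3, OASL, ISG15, HERC5, RSAD2, CMPK2, ISG20, IFI27 and IFI35. The calls of IFIT5 (-0.62 ± 0.173) and XAF1 (-0.69 ± 0.214) were lost without either array of MITF-hairpin DMSO cells. They were also lost without array B of MITF-hairpin PLX4032 cells. Those of OAS2 (-1.10 ± 0.271) and USP18 (-0.76 ± 0.176) were lost without array A of MITF-hairpin DMSO cells, with changes of -1.06 and -0.62. Without that array 9 of the 37 fell.

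**Figure D3:**
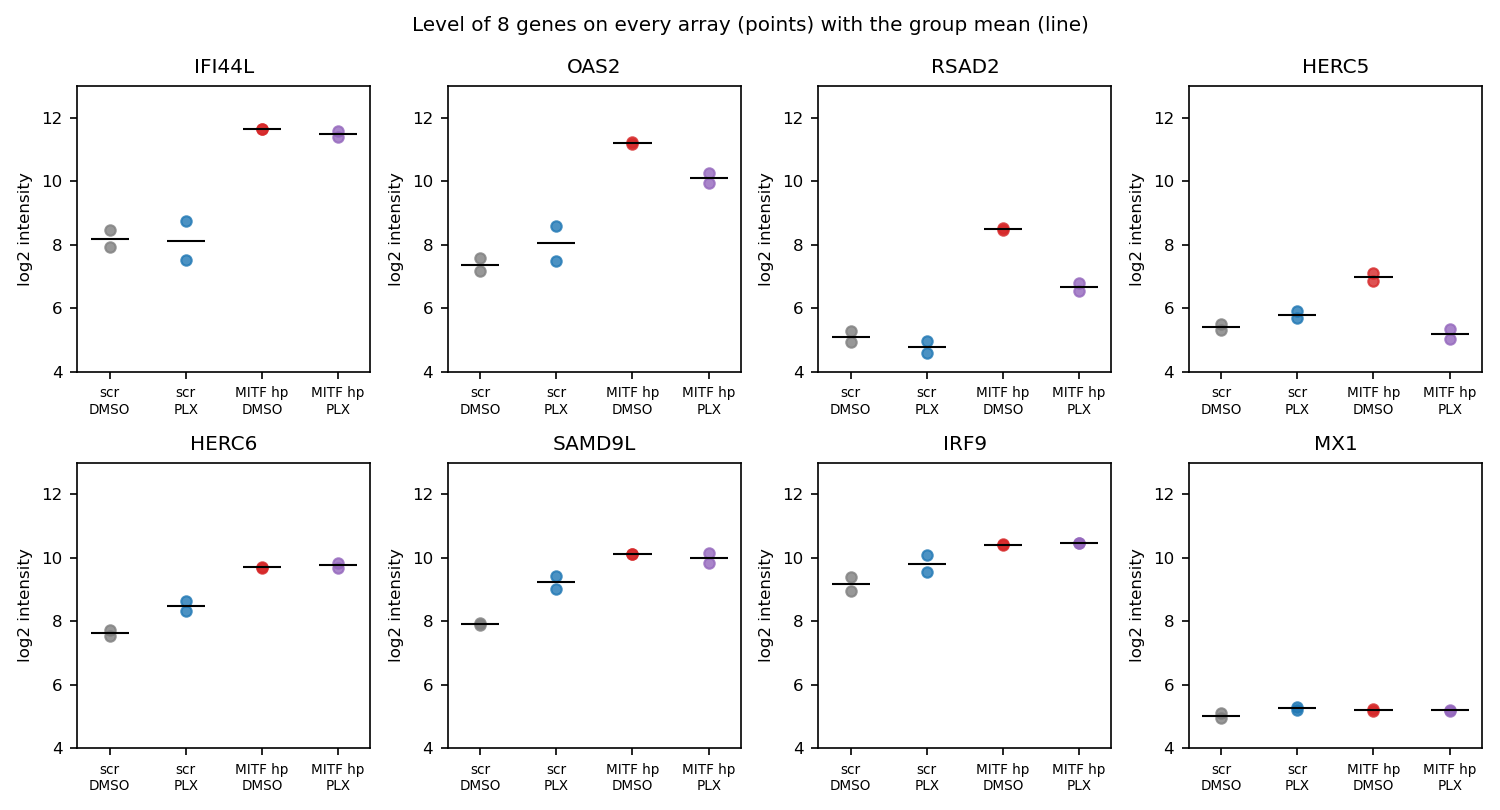
Log2 level of 8 interferon-stimulated genes on each array (points) with the group mean (line), in scrambled (scr) and MITF-hairpin (MITF hp) cells under DMSO or PLX4032 (PLX); all panels share the same vertical axis, which does not start at 0. IFI44L, OAS2 and RSAD2 are far higher in MITF-hairpin DMSO cells, HERC5 returns from 6.99 to 5.19 under PLX4032 while HERC6 does not, SAMD9L and HERC6 rise with PLX4032 in scrambled cells, and MX1 stays near 5.

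Set against scrambled cells under the same drug, MITF-hairpin PLX4032 cells still had most of the programme. Of the 37 genes 33 were higher and 1 was lower, where 13.5% of all genes were higher and 15% lower, and the median was 1.25 beside 0.02. All 33 had also risen in DMSO. The largest differences were those of IFIT2 (3.38 ± 0.124, 10.4-fold), IFI44L (3.37 ± 0.304), XAF1 (2.80 ± 0.214) and IFIT1 (2.79 ± 0.322), and 6 of the genes stood among the 100 largest rises. The 3 genes with no call were MX1, MX2 (0.23 ± 0.118) and EPSTI1 (0.08 ± 0.105).

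The gene that was lower was HERC5, with 5.90 and 5.69 in scrambled PLX4032 cells and 5.34 and 5.03 in MITF-hairpin PLX4032 cells (-0.61 ± 0.128, 1.52-fold, limma adjusted p = 0.00411). It was called higher with the MITF hairpin in DMSO and lower under PLX4032. Without array A of scrambled PLX4032 cells the second call was lost (-0.50, adjusted p = 0.0549). ISG20 (0.38 ± 0.119) and IRF9 (0.65 ± 0.167) also lost their calls when an array was left out, IRF9 without array B of scrambled PLX4032 cells and ISG20 in 5 of the 8 cases.

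The changes with the MITF hairpin under the 2 treatments come from different arrays. In 34 of the 37 genes the change was smaller under PLX4032 than in DMSO, as it was in 9165 of all 18404 genes. The median change of the 37 under PLX4032 was 1.25. It was 1.42 without array A of scrambled PLX4032 cells and 1.12 without array B of that group. Across the 37 genes, which are not independent replicates, the changes under the 2 treatments correlated at r = 0.82 (Spearman rho 0.77, n = 37 genes), given as a description. For the 36 genes called in DMSO, the log2 change under PLX4032 was a median of 65.2% of that in DMSO, from -38.5% for HERC5 and 13.2% for EPSTI1 to 117% for EIF2AK2. IFI44L (97.4%), IRF1 (97.6%), BST2 (101%) and DTX3L (109%) had nearly the same change under both treatments, and SAMD9L (34.3%), OASL (42.5%), CMPK2 (43.5%) and SAMD9 (43.7%) had a much smaller one under PLX4032.

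**Figure D4:**
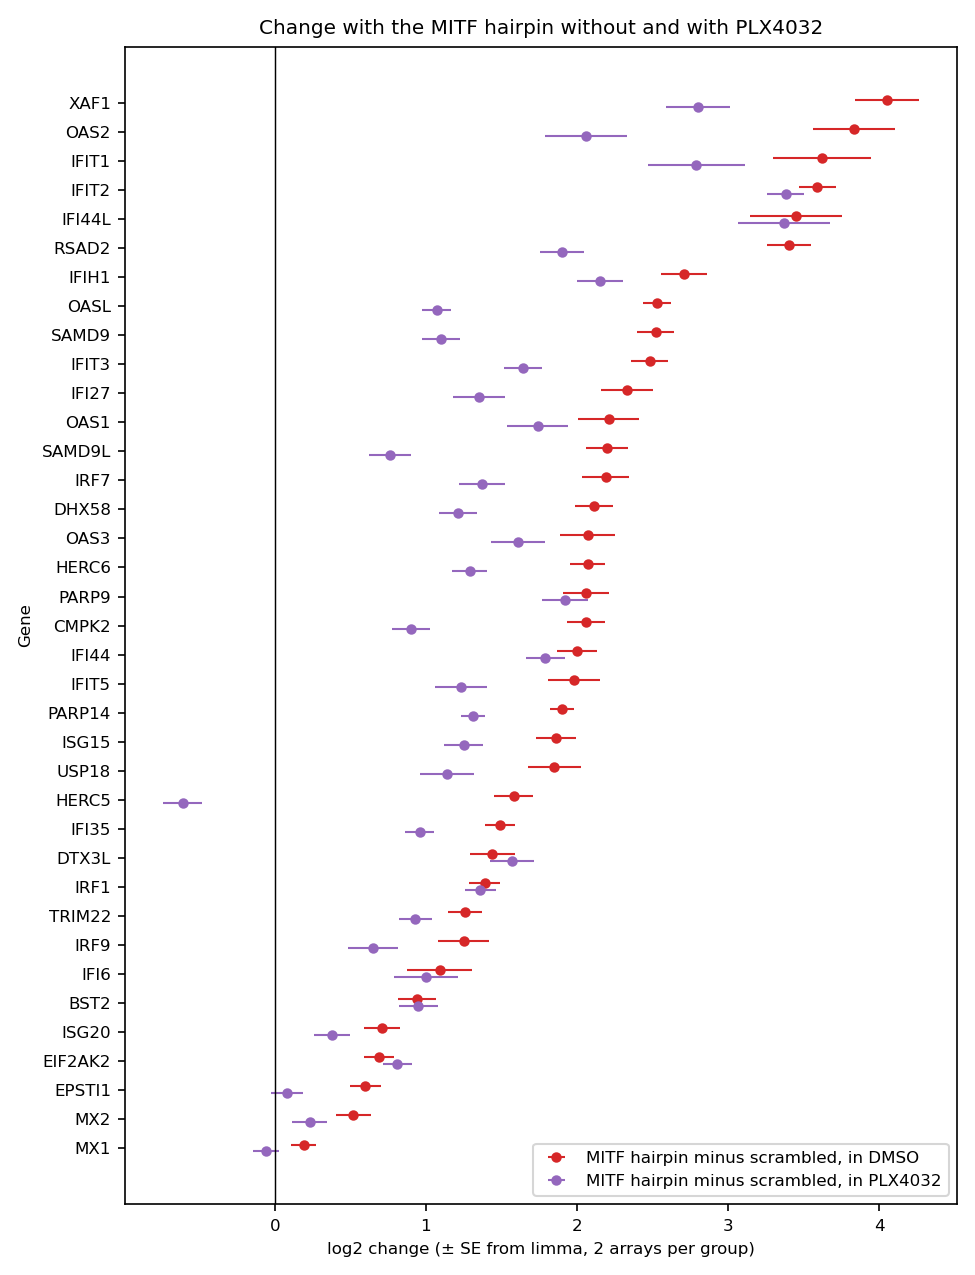
Log2 change with the MITF hairpin (horizontal axis, ± SE from limma, 2 arrays per group) for each of the 37 genes, ordered by the change in DMSO, with red for DMSO and violet for PLX4032. Violet points lie left of red ones for 34 of the 37 genes, HERC5 crosses from 1.58 to -0.61, and IFI44L moves little, from 3.45 to 3.37.

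The interaction asks whether PLX4032 acted differently with and without the MITF hairpin. It was negative and called in 16 of the 37 genes and positive in 0, where 4.85% of all genes were called negative and 6.97% positive, and the median was -0.59 beside 0 for all genes. The 16 fell into groups by what PLX4032 did in each kind of cell.

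For 8 genes PLX4032 raised the level in scrambled cells, with no call in MITF-hairpin cells: IFIT3, DHX58, HERC6, IRF7, PARP14, SAMD9, SAMD9L and EPSTI1. SAMD9L is the clearest, with a change of 1.31 in scrambled cells, -0.14 ± 0.138 in MITF-hairpin cells and an interaction of -1.45 ± 0.195 (limma adjusted p = 0.000681). SAMD9 had an interaction of -1.42 ± 0.175.

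For 7 genes PLX4032 lowered the level in MITF-hairpin cells, with no call in scrambled cells: OAS2, OASL, RSAD2, CMPK2, IFI27, IFI35 and XAF1. OASL had changes of -1.23 in MITF-hairpin and 0.22 ± 0.0935 in scrambled cells, and an interaction of -1.45 ± 0.132 (limma adjusted p = 4.53e-05). RSAD2 had an interaction of -1.50 ± 0.205. OAS2, at -1.77 ± 0.383 (limma adjusted p = 0.0119), rested on scrambled PLX4032 arrays 1.09 apart.

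HERC5 alone was called in both settings and in opposite directions, 0.38 ± 0.128 in scrambled cells and -1.80 ± 0.128 in MITF-hairpin cells, and its interaction of -2.18 ± 0.18 was the largest of the list (limma adjusted p = 2.7e-05). The rise in scrambled cells was lost when any of 3 arrays was left out, as without array A of scrambled PLX4032 cells (0.27, adjusted p = 0.244). The remaining 21 genes had no called interaction. They include IFI44L (-0.09 ± 0.429), BST2 (0.01 ± 0.18) and IRF1 (-0.03 ± 0.145), and the wide error of IFI44L leaves a 95% interval of -1.04 to 0.86.

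Leaving out single arrays gave 11 to 22 called interactions, all negative. The same 11 genes were called in each of these cases: OAS2, OASL, IFIT3, DHX58, HERC5, HERC6, PARP14, RSAD2, CMPK2, SAMD9 and SAMD9L. The other 5, IRF7, IFI27, IFI35, XAF1 and EPSTI1, lost the call in at least 1 case. The OAS2 call was lost with the other variance prior.

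**Figure D5:**
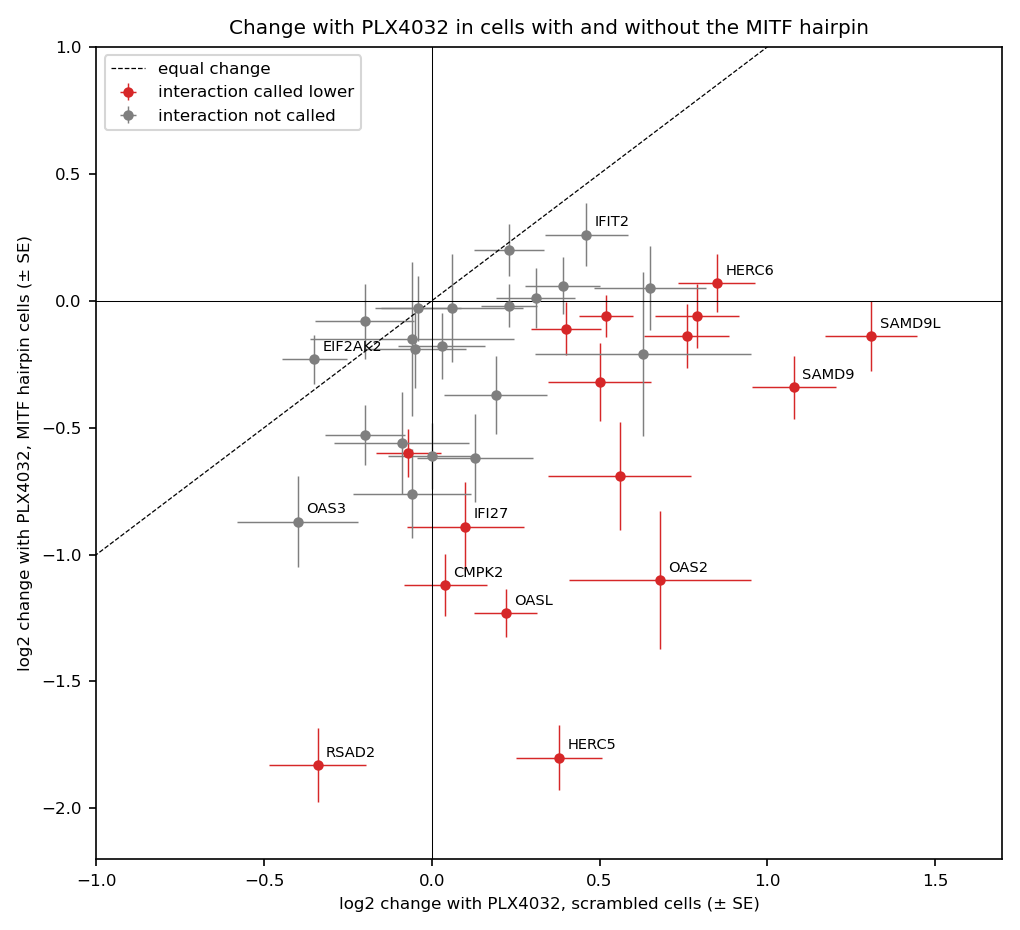
Log2 change with PLX4032 in scrambled cells (horizontal axis) against that in MITF-hairpin cells (vertical axis) for the 37 genes, with SE bars from limma; red marks a called interaction and the dashed line equal change. Red points lie below the line in 2 arms, one to the right with SAMD9, SAMD9L and HERC6 and one downward with RSAD2, HERC5, OASL and CMPK2.

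With both perturbations against neither, 34 of the 37 genes were higher and 0 lower, where 27.1% of all genes were higher and 21.5% lower. The median was 1.44 beside 0.08. This contrast shares its scrambled DMSO arrays with the first 2 and is given for the levels alone. IFIT2 was highest, at 3.85 ± 0.124 (14.4-fold), followed by IFIT1 at 3.41 ± 0.322, XAF1 at 3.36 ± 0.214 and IFI44L at 3.30 ± 0.304. The 3 genes with no call were MX1 (0.17 ± 0.0845), ISG20 (0.19 ± 0.119) and HERC5 (-0.23 ± 0.128).

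The ligands of the pathway moved little in comparison with these genes. Of 15 type I and III interferon genes measured, 3 rose with the MITF hairpin in DMSO and 0 fell, a share of rises near the 14.4% of all genes, and the median of 0.02 equalled that of all genes. The 3 were the type III interferons IFNL1 (0.64 ± 0.109, limma adjusted p = 0.00107), IFNL2 (0.60 ± 0.169) and IFNL3 (0.63 ± 0.182). IFNL1 read 4.83 and 4.89 in scrambled DMSO cells and 5.55 and 5.46 in MITF-hairpin DMSO cells. IFNL2 and IFNL3 are nearly identical in sequence and their probes may read both genes, and the IFNL2 call was lost after a second quantile normalization. IFNL3 rested on scrambled DMSO arrays that lay far apart, at 7.20 and 6.51, beside 7.56 and 7.42 in MITF-hairpin DMSO cells.

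IFNB1, the first type I interferon made by most cells, read 3.35 and 3.42 in scrambled DMSO cells and 3.35 and 3.23 in MITF-hairpin DMSO cells (-0.09 ± 0.0912, limma adjusted p = 0.476). With PLX4032 in MITF-hairpin cells it was called higher, at 3.67 and 3.50 (0.29 ± 0.0912, limma adjusted p = 0.0297). Its interaction of 0.32 was not called, so this response was not shown to differ between the cells. Without detection calls it is not known how far these dim values lay above background. The measured interferon alpha genes (IFNA2, IFNA5, IFNA6, IFNA8, IFNA10, IFNA13, IFNA16 and IFNA21) and IFNE, IFNK and IFNW1 had 0 calls in any contrast, with changes with the hairpin in DMSO from -0.20 (IFNA10) to 0.14 (IFNE). Interferon gamma, IFNG, changed by -0.06 ± 0.11 and had no call in any contrast. The interaction was called for IFNL1, at -0.55 ± 0.154 (limma adjusted p = 0.0432).

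Of 6 interferon receptor genes, 4 rose with the MITF hairpin in DMSO, as 14.4% of all genes did. IFNGR2 rose by 0.68 ± 0.0858, IFNAR2 by 0.45 ± 0.103, IFNAR1 by 0.33 ± 0.106 and IL10RB, a chain of the type III receptor, by 0.32 ± 0.0764. IFNGR1 (0.00 ± 0.104) and IFNLR1, the specific chain of the type III receptor (0.05 ± 0.0792), were not called. PLX4032 lowered IFNGR2 in scrambled cells (-0.56 ± 0.0858) and in MITF-hairpin cells (-0.71 ± 0.0858). It raised IL10RB in both (0.42 ± 0.0764 and 0.46 ± 0.0764). IFNAR2 fell in scrambled cells (-0.37 ± 0.103) and was not called in MITF-hairpin cells (-0.05 ± 0.103), and IFNAR1 (0.34 ± 0.106) and IFNGR1 (0.45 ± 0.104) rose in MITF-hairpin cells and were not called in scrambled cells (0.23 ± 0.106 and 0.08 ± 0.104). The interaction was not called for IFNAR2 (0.32 ± 0.146), IFNGR1 (0.37 ± 0.146) or IFNAR1 (0.12 ± 0.15), so these responses were not shown to differ between the cells.

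Of the kinases, JAK2 fell with the MITF hairpin. It read 7.43 and 7.45 in scrambled DMSO cells and 6.29 and 6.24 in MITF-hairpin DMSO cells (-1.18 ± 0.098, limma adjusted p = 6.59e-06), and the change under PLX4032 was -1.44 ± 0.098. JAK1 (0.01 ± 0.0868) and TYK2 (-0.08 ± 0.0947) were not called in DMSO. PLX4032 raised JAK1 in scrambled cells by 0.35 ± 0.0868 and in MITF-hairpin cells by 0.30 ± 0.0868. STAT3 rose by 0.23 ± 0.0792 with the hairpin in DMSO, a call lost with the replicate letter as a block.

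A list of 9 negative regulators of interferon signalling had 3 rises with the MITF hairpin in DMSO and 0 falls, where 14.4% of all genes rose. UBE2L6, at 0.75 ± 0.1, is the conjugating enzyme of ISG15 and not an inhibitor of signalling. The SOCS proteins block JAK kinases, and SOCS3 rose by 0.46 ± 0.105 and SOCS1 by 0.40 ± 0.132. The phosphatase PTPN2 was called negative in the interaction (-0.78 ± 0.126), as was UBE2L6 (-0.57 ± 0.142).

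Of 19 sensors and adaptors outside the antiviral list, 7 rose and 3 fell with the MITF hairpin in DMSO, with a median of 0.16, where 14.4% of all genes rose and 18.8% fell. RIGI, the sensor of short RNA with a 5′ triphosphate, read 8.10 and 7.99, then 10.98 and 10.94 (2.92 ± 0.205, limma adjusted p = 1.97e-06). The endosomal RNA receptor TLR3 rose by 1.22 ± 0.0932, the ubiquitin ligase TRIM25 rose by 0.62 ± 0.115 and the transcription factor IRF5 fell by 0.68 on the log2 scale. The interaction was called positive for IRF5 (0.80 ± 0.136) and negative for TLR3 (-0.62 ± 0.132) and the kinase IKBKE (-0.52 ± 0.118).

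Most other interferon-stimulated genes also rose with the MITF hairpin in DMSO. Of 43 measured, which include RIGI and some other genes of the lists above, 34 rose and 1 fell, with a median of 0.74. Among all genes 14.4% rose and 18.8% fell. The largest rises were those of RIGI, RTP4 (2.70 ± 0.134), TMEM140 (2.08 ± 0.0989) and the helicase gene DDX60 (2.06 ± 0.104). The gene that fell was GMPR, a GMP reductase (-0.87 ± 0.109), named after its values were seen. Under PLX4032 26 were higher with the MITF hairpin and 1, again GMPR (-2.72 ± 0.109), was lower. Among all genes 13.5% were higher and 15% lower.

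In scrambled cells PLX4032 raised 17 of the 43 and lowered 2, led by GMPR (2.59 ± 0.109), TMEM140 (1.47 ± 0.0989), RTP4 (1.39 ± 0.134) and DDX60L (1.33 ± 0.105). Among all genes 17.3% rose and 16.8% fell there. In MITF-hairpin cells it lowered 11 and raised 5 of the 43, where 15.1% of all genes fell and 18.6% rose. NMI fell by 1.31, the transcription factor gene BATF2 by 1.09 and the death ligand gene TNFSF10 by 1.01 on the log2 scale, and SAMHD1, which depletes nucleotides, rose by 0.95 ± 0.0829. The interaction was negative in 17 and positive in 2 of the 43, with a median of -0.32, where 4.85% of all genes were negative and 6.97% positive.

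Of 20 genes more typical of the interferon gamma response, 17 rose with the MITF hairpin in DMSO and 0 fell, with a median of 0.51. Among all genes 14.4% rose and 18.8% fell. The chemokine gene CXCL10 read 4.63 and 4.67 in scrambled DMSO cells and 9.06 and 9.02 in MITF-hairpin DMSO cells (4.39 ± 0.0791, limma adjusted p = 2.79e-10). The tryptophan-degrading enzyme gene IDO1 rose by 2.02 ± 0.116, APOL6 by 2.00 ± 0.0896 and GBP3 by 1.63 ± 0.191. In scrambled cells PLX4032 lowered 4 of the 20 and raised 3, where 16.8% of all genes fell and 17.3% rose. CXCL10 (-0.64 ± 0.0791) and CXCL11 (-0.53 ± 0.105) were among those that fell there, and IDO1 was not called (0.05 ± 0.116). In MITF-hairpin cells PLX4032 lowered CXCL11 (-1.99 ± 0.105), CXCL10 (-1.89 ± 0.0791) and IDO1 (-1.08 ± 0.116). In all, 6 of the 20 fell there and 1 rose, where 15.1% of all genes fell and 18.6% rose.

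GBP2, a guanylate-binding GTPase, went the other way. It read 4.86 and 4.96 in scrambled DMSO, 4.35 and 4.51 in scrambled PLX4032, 6.55 and 6.29 in MITF-hairpin DMSO and 6.94 and 7.25 in MITF-hairpin PLX4032 cells. Its interaction was 1.15 ± 0.175 (limma adjusted p = 0.00147), the 1 positive call among the 20 beside 5 negative ones. Among all genes 6.97% were called positive and 4.85% negative.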

How the data were processed

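The deposited values were log2 intensities per probe set, normalized across arrays by the authors with RMA, the tool named without a version in the submitters' processing notes. The genome build and annotation behind them were not given in the sources used here. RMA gives all arrays the same distribution and compresses changes of dim probe sets. Values ran from 2.1 to 13.53. No detection calls were used. Of 32321 probe sets, 19158 had a single gene symbol in the annotation of the platform, 1388 had several and 11775 were not listed, and 19128 of the 19158 matched a RefSeq gene record by Entrez identifier. The probe set with the highest mean over the 8 arrays stood for each of 18404 genes, with no filter on dim genes.

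Group means were fitted with limma 3.58.1 (lmFit and eBayes, R 4.3.3) over all 8 arrays, with 4 residual and 6.73 prior degrees of freedom. Tests were two-sided in 6 contrasts, with Benjamini-Hochberg adjustment over all genes and a threshold of 0.05; the fit was tested on simulated data. The members and the companion lists were chosen with earlier results of these data known. Named genes were all members, all measured interferons and receptors, JAK1, JAK2 and TYK2, MITF, and up to 4 of the largest called changes per companion list and contrast, with the exceptions said in the text. Alternatives were a replicate block, a second quantile normalization, leaving out the dimmest 40% of genes, the mean over probe sets, another variance prior, fits on the arrays of 2 groups, and leaving out each array.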

Additional observations from a re-analysis of the deposited data

Results flagged for a closer look

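For 16 of the interferon-stimulated genes and for IFNL1 the change with PLX4032 differed between scrambled and MITF-hairpin cells, tested as the interaction in limma. The log2 differences, MITF-hairpin minus scrambled cells, were -2.18 for HERC5, -1.77 for OAS2, -1.50 for RSAD2, -1.45 for OASL, -1.45 for SAMD9L, -1.42 for SAMD9, -1.25 for XAF1, -1.17 for CMPK2 and -0.99 for IFI27. They were -0.90 for DHX58, -0.84 for IFIT3, -0.82 for IRF7, -0.78 for HERC6, -0.59 for PARP14, -0.55 for IFNL1, -0.53 for IFI35 and -0.52 for EPSTI1. HERC5 is the gene for which the change with the MITF hairpin was called in opposite directions, 1.58 in DMSO and -0.61 under PLX4032. EPSTI1 had the smallest difference of the 17, with limma adjusted p = 0.0467.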

How the results depend on the processing

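Over the alternatives run, no called change of the 37 genes turned its direction. Leaving out 1 array at a time gave 35 to 36 rises with the MITF hairpin in DMSO (median 1.98 to 2.11), 8 to 17 rises and 1 to 7 falls with PLX4032 in scrambled cells (median -0.02 to 0.34), 9 to 16 falls and 0 to 1 rises in MITF-hairpin cells (median -0.29 to -0.16), 32 to 33 rises and 0 to 1 falls with the hairpin under PLX4032 (median 1.12 to 1.42), 34 rises and 0 to 1 falls with both perturbations (median 1.36 to 1.55), and 11 to 22 negative interactions (median -0.82 to -0.41). Where a group was left with 1 array, that array was assumed to vary like the others. With only the arrays of the 2 groups, 1 gene (IFIT2) rose with PLX4032 in MITF-hairpin cells. With the dimmest 40% of genes left out, HERC5 was not tested and 0 genes were lower with the hairpin under PLX4032. With both perturbations HERC5 became 1 fall under a second quantile normalization and with the replicate letter as a block. The letters were not shown to pair the arrays, since the correlations of A minus B between groups ran from -0.094 to 0.329; the block gave 36 rises with the hairpin in DMSO, 14 rises with PLX4032 in scrambled cells, 16 falls in MITF-hairpin cells and 19 negative interactions. The absence of detection calls limits what can be said of dim probe sets such as those of MX1, EPSTI1 and the interferons.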
